A study of Mus musculus with 4 samples.

Results

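Protein tyrosine phosphatases of the Ptpn and Ptpr symbols were compared between the mouse lines TS1 and TS2. They were taken as all genes whose symbol in the array's annotation is Ptpn with a number or Ptpr with a letter, without Ptprc, the gene of CD45. This gave 36 genes of 19938 measured, 19 receptor members (Ptpr) and 17 cytosolic members (Ptpn). Ptprt is not analysed here. The choice used names only, no measured values, and no filter on low values was set, so all 36 entered the test.

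TS1 and TS2 are labelled as lines derived from CD4-positive T lymphocytes. Cells of each line grew untreated in Iscove-Dulbecco's medium with murine interleukin-9, a growth factor that signals through Janus kinases, and no genotype or mouse strain is given in the sources used here. RNA came from 2 biological duplicates of each line, named A and B, each measured on 1 Affymetrix mouse gene array. Each group is a single line, so a difference between TS1 and TS2 is a difference between these lines. Values are log2 of deposited, normalized intensities, 1 probe set (a group of probes read as a unit) per gene, the brightest. Where a pair of values is given for a line, duplicate A comes first. A difference is the TS2 mean less the TS1 mean of these log2 values, given with its standard error (SE), from n = 2 arrays in each line. Adjusted p-values come from limma with Benjamini-Hochberg adjustment over all 19938 genes, and a gene is said to differ at an adjusted p under 0.05. They measure only the spread between these arrays, which may be partly technical, since the labels call the samples biological duplicates without saying how separately they were grown. For a single gene the smallest two-sided p that an exact permutation of 2 against 2 arrays can give is 0.333.

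Protein tyrosine phosphatases remove phosphate from tyrosine and so oppose, or in some cases switch on, tyrosine kinases. The receptor members cross the plasma membrane, and many carry adhesion-like outer parts. The cytosolic members are brought to their substrates by Src homology, FERM, PDZ or proline-rich parts. In T cells, several of them set the activity of Src family kinases, Janus kinases and MAP kinases.

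The median intensity of the arrays lay between 88.6 and 92.5 over 35556 probe sets. Of 10 measured T cell markers, 2 were higher in TS2, 1 was higher in TS1 and 7 did not pass. Their summed intensity was 1025 to 2356 in TS1 and 9299 to 10971 in TS2. Without Cd3e, the brightest of them, it was 940 to 2268 and 2452 to 5041. Cd247 and Cd3e were the 2 higher in TS2. Cd3e, which encodes part of the CD3 complex, lay at 6.45 and 6.41 in TS1 and at 12.74 and 12.53 in TS2. Lat, an adaptor of the T cell receptor, was the one higher in TS1 (difference -2.05, adjusted p = 0.00353). Cd4 lay between 5.15 and 5.38 and Cd3d between 4.63 and 4.92 on all 4 arrays. Cd3g differed between the TS1 duplicates, with 10.52 on TS1 A and 6.07 on TS1 B. Ptprc, left out of the members, was higher in TS2 by 6.04. Of the markers of other cell types, B cell (6 measured), epithelial (7) and endothelial (6) genes had 0 called by limma. At an unadjusted p under 0.05 these lists had 1, 1 and 0 genes. Cd68 of 8 myeloid, Kit of 8 mast cell or basophil and Pdgfra of 7 fibroblast genes were each called higher in TS1. At an unadjusted p under 0.05 the myeloid list had 3 genes, all higher in TS1. The mast cell or basophil list and the fibroblast list each had 1 in either direction. Mcpt8 had the largest difference of the mast cell or basophil list, 4.61 toward TS2, and did not pass (adjusted p = 0.0773). Its TS2 duplicates lay at 7.89 and 11.64. Of the 7 fibroblast genes 6 had a positive difference, and only Pdgfra (-1.78) had a negative one. Of 7 neuronal genes Map2 was called higher in TS2 and Tubb3 higher in TS1. The summed intensity ran from 520 to 526 in TS1 and from 412 to 416 in TS2 for the myeloid list. For the mast cell or basophil list it ran from 7574 to 8566 in TS1 and from 9141 to 12670 in TS2. It ran from 468 to 584 and from 440 to 445 for the fibroblast list, and from 334 to 399 and from 478 to 516 for the neuronal list. It ran from 240 to 246 and from 251 to 252 for the B cell list, and from 471 to 1237 and from 252 to 438 for the endothelial list. It ran from 420 to 437 and from 427 to 471 for the epithelial list. The brightest gene carried part of each sum. Without Pecam1 the endothelial sum was 161 to 166 in TS1 and 168 to 170.1 in TS2. Without Cd68 the myeloid sum was 255 to 280 and 244 to 257, and without Fcer1a the mast cell or basophil sum was 858 to 955 and 934 to 3996, so the lines overlapped for both. Without Map2 the neuronal sum was 282 to 350 in TS1 and 260.3 to 261 in TS2, lower in TS2 where the whole list was higher. Without Col1a1 the fibroblast sum was 340 to 458 and 300.02 to 308. Without Pax5 the B cell sum was 165 to 170.2 and 185 to 192, and without Krt8 the epithelial sum was 286 to 293 and 310.4 to 318. The lowest intensity on any array was 5.98, so a value above 0 does not show that a marker was expressed. Below the median brightness of the array lay 6 of 10 T cell, 6 of 6 B cell, 7 of 8 myeloid and 5 of 8 mast cell or basophil genes. So did 6 of 7 fibroblast, 6 of 7 epithelial, 5 of 6 endothelial and 6 of 7 neuronal genes. The part of these markers in the results was not tested, and a change in the mix of cells cannot be told apart from a change of RNA per cell.

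Of the 36 phosphatases, 6 differed between the lines. Ptpn3, Ptpn6, Ptprn2 and Ptprv were higher in TS2, and Ptprj and Ptpn12 were higher in TS1. The share called, 16.7%, lay near that of all genes, 13.5%. Toward TS2 4 members were called (11.1%), against 5.05% of all genes, and toward TS1 2 (5.56%), against 8.45%. At an unadjusted p under 0.05 there were 12 members, against 29.4% of all genes. Of these, 10 were higher in TS2 (27.8% of the members, against 12.3% of all genes) and 2 higher in TS1 (5.56%, against 17.1%). At least a 2-fold difference was called for Ptpn3 and Ptpn6, against 5.19% of all genes. For 19 of the 36 (52.8%) both arrays of a line lay above both of the other, against 58.4% of all genes. At both thresholds on p more members were higher in TS2 and more of all genes were higher in TS1, a contrast that is described here and was not tested. The lean of all genes varied with brightness. Of genes below the median brightness of the array, 783 were higher in TS2 and 430 in TS1 at an unadjusted p under 0.05. At the adjusted threshold these were 166 and 188. Of the brighter genes they were 1679 and 2970 unadjusted, and 840 and 1497 adjusted. Of the 36 members, 18 lay below that median.

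In each class 3 members were called. Among the 19 receptor members 3 were called (15.8%), 2 higher in TS2 and 1 higher in TS1, and 16 did not pass. Among the 17 cytosolic members 3 were called (17.6%), 2 higher in TS2 and 1 higher in TS1, and 14 did not pass. The median difference was 0.11 over the receptor members, 0.058 over the cytosolic members and 0.013 over all genes. The median size of the difference, whatever its direction, was 0.20, 0.21 and 0.16. The receptor members ran from -0.86 for Ptprj to 1.42 for Ptprs, which did not pass, and the cytosolic members from -0.79 for Ptpn12 to 2.01 for Ptpn3. The classes were compared by these counts and medians only.

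**Figure D1:**
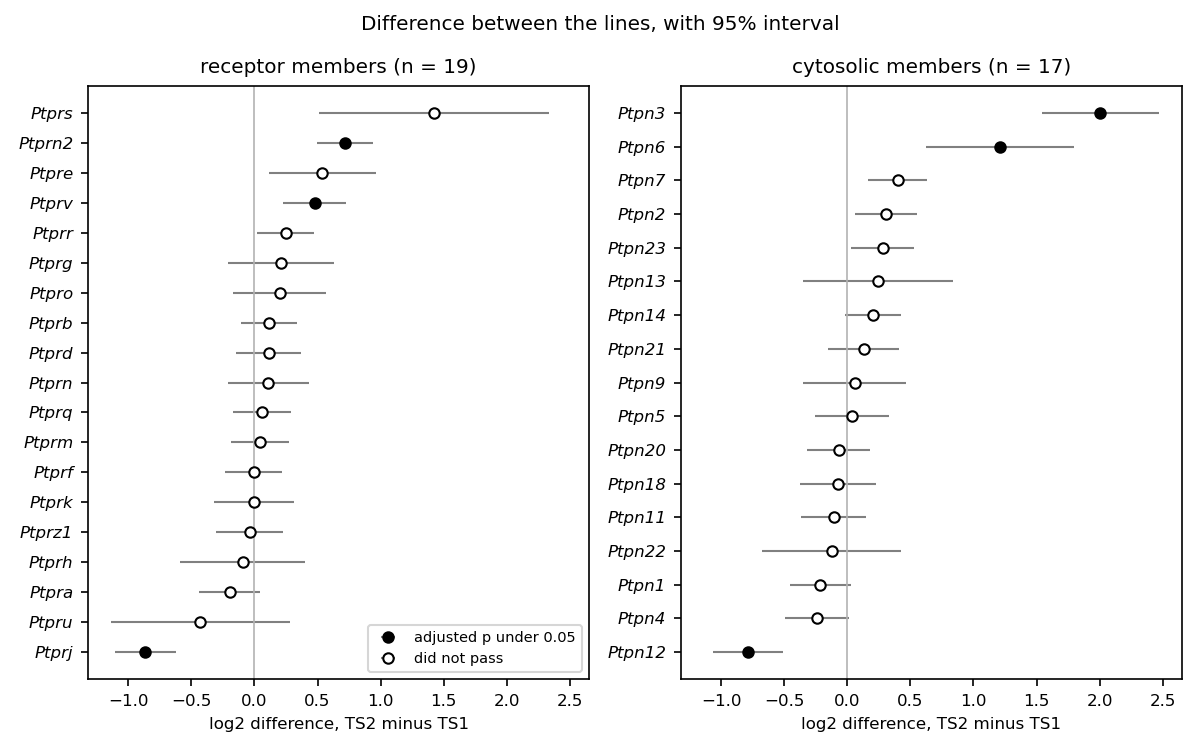
Difference between the line means for each of the 19 receptor and 17 cytosolic members (x axis, log2, TS2 minus TS1; points, estimates; bars, 95% intervals from limma; n = 2 arrays per line). Filled points passed an adjusted p of 0.05, and they lie at or near the ends of each panel, from -0.86 for Ptprj to 2.01 for Ptpn3, with Ptprs (1.42, open) carrying the widest interval.

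The classes differed in the brightness of their probe sets. Of the receptor members, 13 of 19 had a probe set below the median brightness of the array, and of the cytosolic members 5 of 17. Brightness depends on the probes as well as on the transcript, so it does not order the genes by abundance. In dim probe sets background makes up more of the signal, and a difference in transcript can be understated. Of the 13 dim receptor members only Ptprn2 was called, and limma called 0 of the 5 dim cytosolic members (0 too at an unadjusted p below 0.05). Of the brighter members 2 of 6 receptor and 3 of 12 cytosolic genes were called. Over all genes 3.63% of the dim and 22.9% of the brighter ones were called, so few calls among dim probe sets are common to the whole array.

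**Figure D2:**
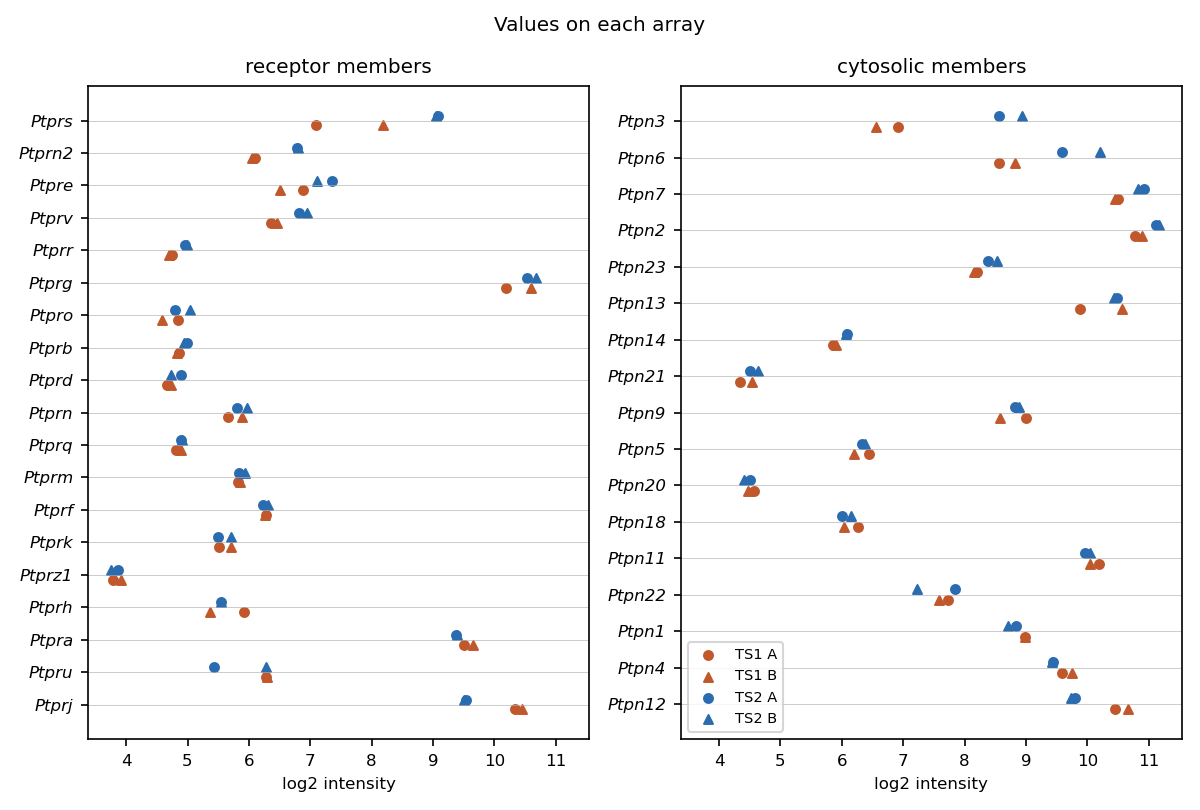
Log2 intensity of each member (rows, ordered by the difference TS2 minus TS1) on the 4 arrays (colour, line; circle, duplicate A; triangle, duplicate B). Positions compare arrays within a gene, not genes with each other. The lines separate clearly for Ptpn3 (6.56 to 6.92 in TS1, 8.56 to 8.93 in TS2), while Ptprs and Ptpru have 1 line with widely spaced duplicates.

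Promoter sequence is shown for the called members that have an entry in a RefSeq-derived table of mouse build GRCm38.p6, as the place where these genes start. Ptpn12 and Ptprv have none there. Each line gives the 250 bases before a start site, 5′ to 3′ on the gene's strand. Capitals mark matches, on either strand, to any of 3 motifs. The first is GGGCGG, the GC box. The second is TTCNNNGAA, the core of STAT factor sites, which reads the same on both strands. The third, for factors of the Gata family, is AGATAA. Matches may overlap each other.
Ptpn3 (chr4:57301838-57302087, minus strand): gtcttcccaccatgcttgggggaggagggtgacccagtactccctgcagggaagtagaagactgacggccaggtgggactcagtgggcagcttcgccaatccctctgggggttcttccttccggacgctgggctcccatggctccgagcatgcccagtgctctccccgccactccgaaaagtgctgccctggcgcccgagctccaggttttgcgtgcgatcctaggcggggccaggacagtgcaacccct
Ptpn6 (chr6:124738710-124738959, minus strand): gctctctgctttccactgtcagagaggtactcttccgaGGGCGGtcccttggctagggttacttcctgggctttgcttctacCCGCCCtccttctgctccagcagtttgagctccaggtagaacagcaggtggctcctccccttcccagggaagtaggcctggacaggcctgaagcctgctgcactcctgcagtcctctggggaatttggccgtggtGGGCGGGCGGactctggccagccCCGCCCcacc
Ptprn2 (chr12:116485470-116485719, plus strand): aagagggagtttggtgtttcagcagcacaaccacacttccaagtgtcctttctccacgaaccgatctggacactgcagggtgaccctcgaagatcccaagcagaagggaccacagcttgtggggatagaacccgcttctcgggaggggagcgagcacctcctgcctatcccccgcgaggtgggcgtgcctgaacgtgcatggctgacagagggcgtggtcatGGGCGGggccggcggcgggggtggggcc
Ptprj, start 1 (chr2:90580596-90580845, minus strand): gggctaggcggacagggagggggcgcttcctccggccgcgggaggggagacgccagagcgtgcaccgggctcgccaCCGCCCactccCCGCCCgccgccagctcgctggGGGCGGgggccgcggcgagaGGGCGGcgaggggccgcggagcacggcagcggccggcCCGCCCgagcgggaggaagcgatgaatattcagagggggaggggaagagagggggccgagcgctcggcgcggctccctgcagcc
Ptprj, start 2 (chr2:90479175-90479424, minus strand): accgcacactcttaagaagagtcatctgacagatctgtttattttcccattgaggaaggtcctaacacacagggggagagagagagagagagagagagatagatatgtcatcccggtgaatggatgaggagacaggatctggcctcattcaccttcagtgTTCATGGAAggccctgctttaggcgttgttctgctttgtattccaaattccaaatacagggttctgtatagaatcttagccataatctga
The windows of Ptpn6 and of the first Ptprj start held 5 GGGCGG matches each, with 2 of those of Ptpn6 overlapping, that of Ptprn2 held 1 and that of Ptpn3 held 0. The second Ptprj start held the single TTCNNNGAA match of the set. The first Ptprj window had 79.2% G and C with 34 CG pairs and the second 44.8% with 3. The Ptpn6 window had 63.2% with 7 CG pairs, that of Ptpn3 64.8% with 12 and that of Ptprn2 63.6% with 15.

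The members were counted without the windows of a single chromosome, a filter that was not applied to all windows. This left 43 windows for 30 of the 36 members, beside 32851 windows of 27025 genes in all. These are more genes than the 19938 measured, so the 2 sets differ in more than the family. A gene can have several windows, and each window was counted. The median content of G and C was 63.6% over the member windows and 52.4% over all windows. GGGCGG occurred in 23 of the 43 (53.5%), in 11 of 24 receptor and 12 of 19 cytosolic windows, against 32.7% of all windows. TTCNNNGAA occurred in 5 of the 43 (11.6%), against 7.02% of all. Besides Ptprj these were windows of Ptpn22, Ptpn23, Ptpre and Ptprh. AGATAA occurred in windows of Ptpre and Ptpro only, 2 of 43 (4.65%), against 9.99% of all. These are matches of letters, not measured binding, and the arrays do not say which start was used.

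Ptpn3, read from its brightest probe set, had the largest difference of the 36. It encodes a cytosolic phosphatase with FERM and PDZ parts that place it under the plasma membrane. Its log2 intensity lay at 6.92 and 6.56 in TS1 and at 8.56 and 8.93 in TS2. Both TS2 arrays lay above both TS1 arrays by far more than the duplicates differed. The difference was 2.01 (SE 0.18, 95% interval 1.54 to 2.47, adjusted p = 0.00435), which is 4.01-fold. It passed without any single array, with adjusted p from 0.00982 to 0.0192.

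Ptpn3 is read by 12 probe sets, whose positions in the gene were not examined. All 12 had both TS2 arrays above both TS1 arrays. Their differences ran from 0.90 to 2.01 with a median of 1.43, and 9 of them were at least 2-fold. The brightest probe set, used above, gave the highest difference of the 12. With the mean of all its probe sets the difference of Ptpn3 was 1.42 (adjusted p = 0.00777), about that of Ptprs (1.42). In a limma fit of all 35556 probe sets 7 of the 12 passed, with adjusted p from 0.00475 for the dimmest of them to 0.103. These probe sets share the same 4 RNA samples and are no replicates. TS2 B lay above TS2 A on all 12, and TS1 A above TS1 B on 8. Ptpn4, the closest relative of Ptpn3, with the same parts, lay at 9.59 and 9.75 in TS1 and at 9.44 and 9.43 in TS2. Its difference of -0.24 (SE 0.098) did not pass (adjusted p = 0.193), and the contrast between the relatives was not tested.

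**Figure D3:**
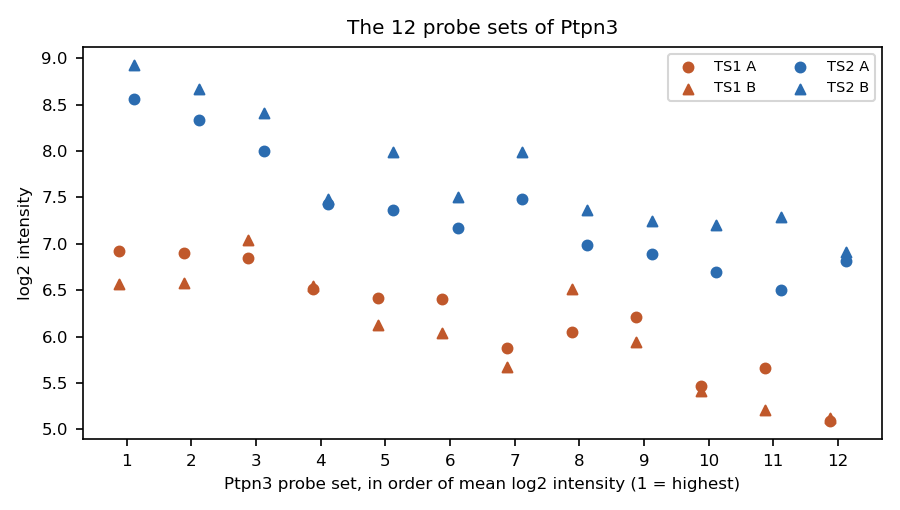
Log2 intensity (y axis) of the 12 Ptpn3 probe sets (x axis, in order of mean intensity) on the 4 arrays (colour, line; circle, duplicate A; triangle, duplicate B). On each probe set the TS2 arrays lie above the TS1 arrays, by 0.90 to 2.01 between the means.

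Ptpn6 encodes SHP1, a phosphatase of blood cells with Src homology parts that is recruited by inhibitory receptors and dampens receptor and Janus kinase signalling. It lay at 8.56 and 8.81 in TS1 and at 9.59 and 10.21 in TS2. The lines did not overlap, but the TS2 duplicates lay 0.62 apart. The difference was 1.21 (SE 0.23, 95% interval 0.63 to 1.80, adjusted p = 0.0314). The Ptpn6 call did not survive leaving out TS1 A, TS1 B or TS2 B, with adjusted p of 0.101, 0.0784 and 0.0685 in that order. Ptpn11, which encodes the relative SHP2, a promoter of Ras signalling below growth factor receptors, lay at 10.18 and 10.04 in TS1 and at 9.96 and 10.05 in TS2. Its lines overlapped, and its difference of -0.11 had a 95% interval of -0.36 to 0.15 (adjusted p = 0.555).

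Of the 3 phosphatases with proline-rich PEST parts, Ptpn12 was higher in TS1. It encodes PTP-PEST, which acts on adhesion proteins such as Bcar1. Ptpn12 lay at 10.45 and 10.66 in TS1 and at 9.79 and 9.74 in TS2. All TS1 values lay above all TS2 values, and the means differed by -0.79 (SE 0.11, adjusted p = 0.0137). Leaving out TS2 A or TS2 B ended the call (adjusted p = 0.0735 and 0.0823). Ptpn22, which dampens Src family kinases in T cells together with Csk, lay at 7.74 and 7.58 in TS1 and at 7.84 and 7.23 in TS2. The TS2 duplicates of Ptpn22 lay on either side of TS1, and its difference of -0.12 did not pass (95% interval -0.68 to 0.43, adjusted p = 0.765). Ptpn18, the third of them, had a difference of -0.073 (adjusted p = 0.745).

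Ptpn2 and Ptpn1 are close relatives that act on Janus kinases, and Ptpn2 also on STAT factors. Ptpn2 lay at 10.78 and 10.90 in TS1 and at 11.12 and 11.17 in TS2, a difference of 0.31 (95% interval 0.065 to 0.55, adjusted p = 0.105). Its second probe set gave 0.39. Ptpn1 lay at 8.98 and 8.99 in TS1 and at 8.84 and 8.71 in TS2, a difference of -0.21 (95% interval -0.46 to 0.030, adjusted p = 0.219). For each of them the lines did not overlap, in opposite directions, and neither passed.

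Ptpn7, Ptpn5 and Ptprr form a group that acts on MAP kinases. Ptpn7, the member of blood cells, lay at 10.51 and 10.46 in TS1 and at 10.93 and 10.83 in TS2. Its TS2 arrays were the higher ones, but the difference of 0.40 (SE 0.092) did not pass (adjusted p = 0.0520). It lay close to the threshold and passed under 5 other settings, with adjusted p from 0.0288 to 0.0499. These were an intensity trend in the prior variance, a robust prior variance, renewed quantile normalization, the dimmest 30% of probe sets left out and 32 added to each intensity before log2. Ptprr lay at 4.75 and 4.70 in TS1 and at 4.96 and 4.99 in TS2 (difference 0.25, adjusted p = 0.141). Ptpn5, known from neurons, had a difference of 0.040 (adjusted p = 0.865).

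The other cytosolic members did not pass. Ptpn23, which works in endosomal sorting, lay at 8.16 to 8.20 in TS1 and 8.38 to 8.53 in TS2 (difference 0.28, adjusted p = 0.137). Ptpn13, a large scaffold with FERM and PDZ parts, lay at 9.88 on TS1 A and 10.56 on TS1 B, and its TS2 values of 10.44 and 10.49 fell between them. Ptpn9, of secretory vesicles, had its TS2 values of 8.82 and 8.88 between the TS1 values of 9.005 and 8.58. Ptpn14 and Ptpn21, a pair with FERM parts, differed by 0.20 and 0.13 (adjusted p = 0.202 and 0.517). Ptpn20 differed by -0.068 (adjusted p = 0.707).

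Ptprj had the largest difference toward TS1 of the 36. It encodes CD148, a receptor phosphatase with fibronectin-like repeats that acts on Src family kinases in blood cells. Ptprj lay at 10.33 and 10.45 in TS1 and at 9.54 and 9.51 in TS2. The lines stood well apart against gaps of 0.12 and 0.026 between duplicates. The difference was -0.86 (SE 0.093, 95% interval -1.10 to -0.62, adjusted p = 0.00740), a level 1.82-fold higher in TS1. The second Ptprj probe set lay at 9.87 and 9.95 in TS1 and at 9.23 and 9.17 in TS2. It gave -0.71 and passed in the fit of all probe sets (adjusted p = 0.0330). The call of Ptprj narrowly missed the threshold when TS2 A or TS2 B was left out (adjusted p = 0.0501 and 0.0518).

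Ptprj and Ptprv share a subfamily with Ptprb, Ptprh, Ptpro and Ptprq. Ptprv, known from embryonic stem cells and osteoblasts, lay at 6.36 and 6.45 in TS1 and at 6.82 and 6.95 in TS2. The lines did not overlap, and the difference of 0.48 (SE 0.098) passed (adjusted p = 0.0386). No fit of 3 arrays called Ptprv: leaving out TS1 A gave an adjusted p of 0.103, TS1 B 0.0839, TS2 A 0.128 and TS2 B 0.197. Blocking on the replicate letter gave an adjusted p of 0.0702. Ptprb, of endothelium, Ptpro, of kidney podocytes, Ptprq, of the inner ear, and Ptprh, of gut epithelium, had differences from -0.092 to 0.20 (adjusted p from 0.435 to 0.810). Among these, Ptprh had TS1 duplicates 0.55 apart, at 5.92 and 5.37.

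Ptprn2 encodes a protein of secretory granules in neuroendocrine cells. It lay at 6.10 and 6.05 in TS1 and at 6.79 on both TS2 arrays. The duplicates of either line were very close, with gaps of 0.051 and 0.0090. The difference was 0.72 (SE 0.086, 95% interval 0.50 to 0.94, adjusted p = 0.00998), which is 1.64-fold. Leaving out TS2 A or TS2 B ended the call of Ptprn2 (adjusted p = 0.0674 and 0.0668), while the difference was 0.72 and 0.71. Its relative Ptprn lay between 5.65 and 5.96 on the arrays, with overlapping lines (difference 0.11, adjusted p = 0.627).

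Ptprs had the largest difference among the receptor members, but it did not pass. It belongs to the LAR group with Ptprf and Ptprd, receptors known from axons and synapses that bind proteoglycans. Ptprs lay at 7.09 and 8.19 in TS1 and at 9.07 and 9.05 in TS2. The TS1 duplicates lay 1.09 apart, over 2-fold, while the TS2 duplicates lay 0.029 apart. The difference was 1.42 (SE 0.36, 95% interval 0.51 to 2.33, adjusted p = 0.0643). Ptprs passed without TS1 A, where its difference was 0.87 (adjusted p = 0.0198), without TS1 B, where it was 1.97 (adjusted p = 0.00451), and after renewed quantile normalization (adjusted p = 0.0489). With a single TS1 array left, that array is assumed to vary like TS2, and the gap between the TS1 duplicates is not seen. Ptprd differed by 0.11 and Ptprf by -0.0046 (adjusted p = 0.532 and 0.983).

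Ptpra and Ptpre are relatives with short outer parts that act on Src family kinases. Ptpre lay at 6.88 and 6.50 in TS1 and at 7.35 and 7.10 in TS2, a difference of 0.54 (95% interval 0.12 to 0.96, adjusted p = 0.103). Ptpra lay at 9.51 and 9.65 in TS1 and at 9.37 and 9.39 in TS2, a difference of -0.20 (95% interval -0.44 to 0.048, adjusted p = 0.254). Their lines did not overlap, in opposite directions, and neither passed.

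The remaining receptor members did not pass. In the group of homophilic adhesion receptors, Ptpru lay at 6.27 and 6.29 in TS1, at 5.43 on TS2 A and at 6.27 on TS2 B. Only TS2 A stood apart, and the difference of Ptpru was -0.43 (adjusted p = 0.387), but -0.0086 without TS2 A and -0.85 without TS2 B, where it passed (adjusted p = 0.0456). Ptprk and Ptprm of that group differed by -0.0063 and 0.045 (adjusted p = 0.983 and 0.801). Ptprg and Ptprz1, with outer parts like carbonic anhydrase, differed by 0.21 and -0.038 (adjusted p = 0.462 and 0.857). Ptprg lay between 10.18 and 10.68 on the arrays with overlapping lines.

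The gap between duplicates varied among the members. It reached at least 0.5 in TS1 for Ptprs, Ptpn13 and Ptprh, and in TS2 for Ptpru, Ptpn6 and Ptpn22. Of these 6 only Ptpn6 was called. Over all 19938 genes, 1032 had such a gap in TS1 and 593 in TS2. For 19 of the 36 members the difference between the lines was smaller than the larger gap between duplicates. The same held for 10512 of all 19938 genes, a like share. The median gap of the members was 0.14 in TS1 and 0.096 in TS2, against 0.13 and 0.11 over all genes.

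**Figure D4:**
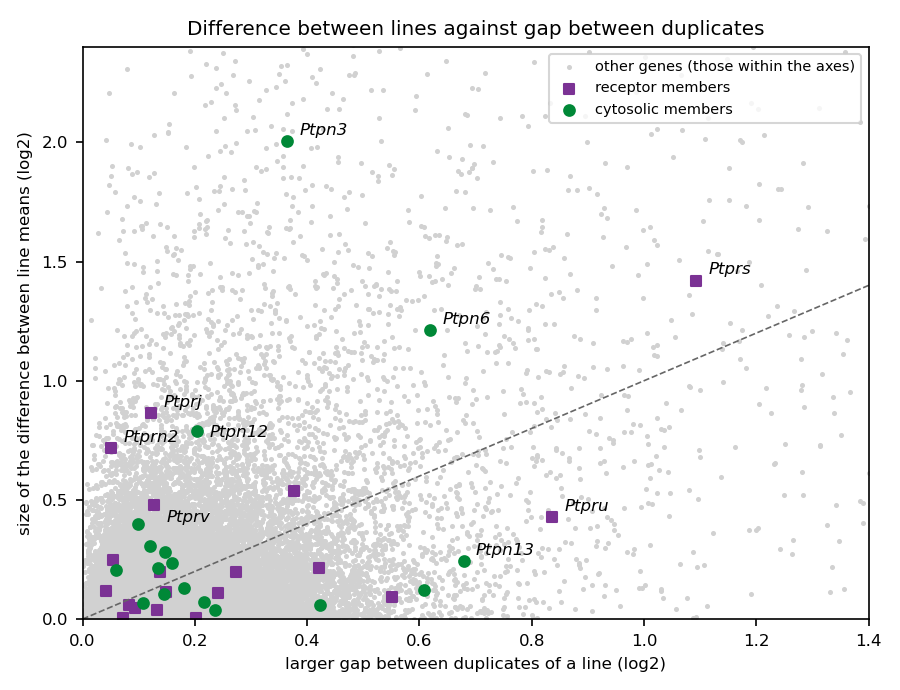
Size of the difference between line means (y axis, log2) against the larger of the gaps between duplicates within a line (x axis, log2), for receptor members (squares), cytosolic members (circles) and other genes (grey). On the dashed line both are equal. Ptpn3 (2.01) and Ptpn6 (1.21) lie above it, and so does Ptprs (1.42) with its gap of 1.09, while 19 members lie below. The difference was smaller than the gap for 10512 of all 19938 genes too, not all of them within the axes.

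Partners and substrates of these phosphatases were taken from 5 lists with 102 measured genes, of which 19 were called. Of 11 measured Src family kinases and regulators, 3 were higher in TS2 and 1 in TS1. Zap70, a kinase of the T cell receptor, was at 8.36 and 8.77 in TS1 and at 10.85 and 10.83 in TS2, higher by 2.27 (SE 0.15, adjusted p = 0.00195). Pag1, a membrane adaptor that holds Csk near Src kinases, was higher by 1.64 (SE 0.16, adjusted p = 0.00534), and Lime1, a related adaptor, by 0.51 (adjusted p = 0.0300). Src was higher in TS1 by 0.61 on its log2 scale (difference -0.61, adjusted p = 0.0396). Src also missed the threshold after centring (adjusted p = 0.0577), after renewed quantile normalization (adjusted p = 0.0840) and with the block (adjusted p = 0.0798), and Lime1 with the block (adjusted p = 0.0641).

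Of 12 measured partners of the PEST phosphatases, 3 were higher in TS2 and limma called 0 higher in TS1. At an unadjusted p under 0.05 there were 4 higher in TS2 and 2 higher in TS1. These are 33.3% and 16.7% of the list, against 12.3% and 17.1% of all genes. Pstpip1, a cytoskeletal adaptor bound by these phosphatases, lay at 6.28 and 6.18 in TS1 and at 8.70 and 8.19 in TS2 (difference 2.22, SE 0.19, adjusted p = 0.00344). Ptk2b, a focal adhesion type kinase, was higher by 0.92 (adjusted p = 0.0206) and Shc1, an adaptor of growth factor receptors, by 0.60 (adjusted p = 0.0266). Of 21 measured docking proteins and inhibitory receptors of SHP1 and SHP2, 1 was higher in TS2 and 1 in TS1. Lilrb4a, an inhibitory receptor, lay at 7.85 and 6.53 in TS1 and at 10.03 and 10.38 in TS2 (difference 3.01, SE 0.44, adjusted p = 0.0163), and part of its signal may belong to a near-identical copy. Gab3, a docking protein, differed by -0.51 (adjusted p = 0.0380), a call lost with the block (adjusted p = 0.0899), after centring (adjusted p = 0.0530) and after renewed quantile normalization (adjusted p = 0.0621).

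Of 31 measured extracellular ligands and partners of the receptor members, 1 was higher in TS2 and 3 in TS1. Angpt1, a ligand of the receptor Tek, differed by -2.14 (SE 0.21, adjusted p = 0.00573) and Il1rap, a chain of the interleukin-1 receptor, by -1.40 (adjusted p = 0.0135). Among proteoglycan core proteins, Sdc1 differed by -0.70 (adjusted p = 0.0127) and Gpc1 by 0.86 (adjusted p = 0.0111). Of 27 other phosphatases outside the Ptpn and Ptpr symbols and their associates, 6 were higher in TS2 and limma called 0 higher in TS1. At an unadjusted p under 0.05 there were 6 higher in TS2 and 4 higher in TS1. These are 22.2% and 14.8% of the list, against 12.3% and 17.1% of all genes. Ubash3a, a phosphatase-like brake on T cell receptor signalling, was higher by 2.35 (SE 0.47, adjusted p = 0.0358), and Eya2 by 1.14 (adjusted p = 0.0222). Tns3, a focal adhesion protein, was higher by 1.09 (adjusted p = 0.0261) and Cdc14a by 0.92 (adjusted p = 0.0419). Ubash3a missed the threshold with the block (adjusted p = 0.0870), under the robust prior variance (adjusted p = 0.0643) and with 32 added to each intensity before log2 (adjusted p = 0.0602), as did Cdc14a with the last of these (adjusted p = 0.0593). The shares called were 36.4%, 25.0%, 9.52%, 12.9% and 22.2% in the order of these lists, against 13.5% of all genes. The lists differed in brightness. In the same order, 6 of 11, 10 of 12, 7 of 21, 9 of 31 and 24 of 27 genes lay at or above the median brightness of the array. Over all genes 22.9% of those at or above it and 3.63% of those below it were called. The median differences of the lists ran from 0.022 to 0.12.

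Of the 17 partner genes named here, Zap70, Pag1, Pstpip1, Il1rap and Angpt1 passed whichever array was left out. Without TS2 A the calls of Src (adjusted p = 0.184), Lime1 (0.138), Gab3 (0.197), Lilrb4a (0.0623), Ptk2b (0.0870), Shc1 (0.147), Gpc1 (0.0508), Sdc1 (0.0833), Ubash3a (0.102) and Tns3 (0.0566) were lost. Without TS2 B those of Src (adjusted p = 0.147), Lime1 (0.160), Gab3 (0.123), Lilrb4a (0.0783), Ptk2b (0.104), Shc1 (0.107), Gpc1 (0.0671), Sdc1 (0.0741) and Cdc14a (0.0999) were lost. Without TS1 A those of Src (adjusted p = 0.0743), Lime1 (0.0786), Gab3 (0.0996), Ubash3a (0.102), Eya2 (0.0728), Tns3 (0.0688) and Cdc14a (0.125) were lost. Without TS1 B those of Lime1 (adjusted p = 0.0609), Gab3 (0.0671), Shc1 (0.0785), Ubash3a (0.0582), Eya2 (0.0777), Tns3 (0.0972) and Cdc14a (0.103) were lost.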

How the data were processed

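The submitters' processing notes name Affymetrix Expression Console and RMA and give no version. The authors deposited linear intensities for each probe set on each array, from which log2 values were computed (0 missing or non-positive values). RMA normalizes between arrays, so a shift shared by most genes is removed. No source used here gives signal over background, scan day or slide, so batches were not tested.

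Names come from GEO's annotation of the platform. Of 35556 probe sets, 21789 had 1 gene, and symbols were updated by Entrez number through RefSeq (GRCm38.p6). Each gene was read from its brightest single-gene probe set by mean log2 value. The members had 49 probe sets, and Ptpn2, Ptpn3 and Ptprj had several.

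All 4 arrays entered 1 limma fit (3.58.1, lmFit and eBayes, R 4.3.3) with the line as factor, 2 residual and 3.03 prior degrees of freedom. The fit was also run on simulated data of the same 19938 genes. Few genes were changed there, and the normal errors had variances drawn from limma's own fitted prior. The fit recovered 65.6% of genes changed by 1 and 96.8% of those changed by 2 on the log2 scale. False calls were 9.7 on average over 10 simulations, which is no estimate of the false calls among the genes called here. Tables and figures used Python 3.11.15 with pandas 2.3.3 and matplotlib 3.10.9.

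All members were named, and values on each array are given for called members and for Ptpn1, Ptpn2, Ptpn6, Ptpn7, Ptpn11, Ptpn22, Ptpra, Ptpre and Ptprj. Of each partner list the called genes with the 4 largest differences were named. Ptprs, Ptprr, Ptpn4, Ptpn9, Ptpn13, Ptpn23, Ptprh, Ptprn, Ptprg and Ptpru were given more values after these were seen. The members, lists and tests were chosen with earlier results of these data known. The fit of all probe sets and the marker sums without the brightest gene were added after seeing the data. Tried besides were a block for the replicate letter, fits without each array, other prior variances, centring, quantile normalization, a filter on dim probe sets, 32 added before log2, the mean of a gene's probe sets, no moderation, limma's treat and a stricter adjusted p of 0.01.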

Additional observations from a re-analysis of the deposited data

How the results depend on the processing

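Of the 36 phosphatases, 5 to 8 passed with the replicate letter as a block (5), with the other prior variances (7 each), after centring (6) or renewed quantile normalization (8), without the dimmest 30% of probe sets (7 of 28 left), with 32 added before log2 (7) and with the mean of a gene's probe sets (6), against 6. With an adjusted p under 0.01 it was 3 of 36, among them 1 cytosolic member. Without moderated variances limma's linear model called 0 members, 0 receptor members, 0 cytosolic members, 0 partner genes and 0 of all genes. At an unadjusted p under 0.05 these were 9, 4, 5, 18 and 4156. The treat test of limma, with 2-fold as its minimum, called 0 members of either class (0 receptor with 0 and 0 cytosolic with 1 at an unadjusted p under 0.05), 2 partner genes and 320 of all genes. The adjusted p under 0.01 left 4 of 19 partner genes and 807 of 2691 genes.

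Leaving out each array in turn gave 2 to 5 members, 0 to 3 receptor and 1 to 2 cytosolic members, 8 to 13 partner genes and 979 to 2198 of all genes. The lone array of a line is then assumed to vary like the other line, with fewer degrees of freedom.

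The deviations of A from B in the lines correlated at -0.029, so arrays of the same letter showed no shared pattern of deviations. This does not settle whether they were grown or processed together. As a block the letters moved the count of all genes to 1666 and ended the call of Ptprv among the members.

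Some members with small differences changed sign, none of them called. After centring these were Ptprf (0.020) and Ptprk (0.018). With each array left out in turn these were Ptpn13 (-0.097 to 0.58), Ptpn18 (-0.18 to 0.035), Ptpn22 (-0.43 to 0.18), Ptpn5 (-0.078 to 0.16), Ptpn9 (-0.15 to 0.27), Ptprf (-0.040 to 0.031), Ptprh (-0.37 to 0.18), Ptprk (-0.11 to 0.095), Ptprm (-0.0023 to 0.092), Ptprn (-0.0093 to 0.23) and Ptprz1 (-0.10 to 0.029). The cause was not tested. Centring shifted the median of all genes by 0.024 and quantile normalization by 0.0063.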
